A study of Mus musculus with 6 samples.

Results

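The genes of respiratory complex I were examined in hearts of mice with floxed alleles of PHD2 and PHD3. Members were taken by name: protein-coding genes whose symbol begins with Nduf, which covers the nuclear-encoded subunits and the Ndufaf assembly factors, without Ndufa4 and Ndufa4l2. By this rule 44 genes with 52 probes were found, of 20145 named genes on the array, and all 44 passed the filter on dim probes. Another 3 genes that the rule covers, Ndufb1, Ndufb4b and Ndufb4c, had no probe matched by accession and were not analysed here. RNA from whole hearts of C57/B6 mice aged 8 weeks was hybridised in 1 colour, 1 array per heart. The 3 KO-labelled hearts carried PHD2/3f/f with Cre+/-, and the 3 control hearts carried PHD2/3f/f with Cre-/-, so both groups held the floxed alleles. The Cre driver, any inducer, the deleted exons and the sex of the mice are not given in the sources used here. PHD2 and PHD3, encoded by Egln1 and Egln3, are the oxygen-dependent prolyl hydroxylases that mark hypoxia-inducible factors for destruction.

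Complex I is the entry point of the respiratory chain: it takes electrons from NADH, passes them along iron-sulfur clusters to ubiquinone and pumps protons across the inner mitochondrial membrane. Its core subunits carry out this chemistry, the accessory subunits surround and stabilise them, and assembly factors help to build the enzyme without remaining in it. Some core subunits are encoded in mitochondrial DNA and are not covered by the symbol rule. The heart makes most of its ATP by this route. The roles given below were worked out largely on the human and bovine enzymes.

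Signals are given on the log2 scale relative to the 75th percentile of their own array, so a value of 0 equals that percentile. Levels of different genes come from different probes and are not compared. The targeted genes were examined first. Egln1 had log2 signals of -0.39, 0.29 and 0.06 in the KO-labelled hearts, against 1.27, 1.39 and 0.99 in the controls, and fell (log2 difference -1.23 ± 0.21 SE, limma adjusted p = 0.00652). Egln3 had 4.24, 4.62 and 4.77 in the KO-labelled hearts, against 2.57, 2.44 and 2.69 in the controls, and rose (log2 difference 1.98 ± 0.17 SE, limma adjusted p = 0.00165). The rise of Egln3 goes against the label at face value, so the hearts are called by their labels throughout. Whether either probe lies in the deleted part is not known. Of 55608 probes kept, between 25755 and 28338 per array were well above background, and 0 were saturated.

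The signal of 43 of the 44 complex I genes fell in KO-labelled hearts, 0 rose and 1, Ndufab1, did not pass (limma, p-values adjusted by Benjamini-Hochberg across the 20012 genes and features, threshold 0.05; also 0 rose at an unadjusted p under 0.05). In the same comparison 23.0% of all genes and features fell and 16.1% rose. The falls described below ran from 1.53-fold to 2.70-fold, and 28 of the 43 were over 2-fold, a size reached by 9.22% of all genes and features. The median log2 difference, KO-labelled minus control, was -1.08 over the 44 genes and -0.11 over all genes and features. For the same 43 genes all 3 KO-labelled hearts lay below all 3 controls, as they did for 33.1% of all genes and features. For 0 of the 44 did all KO-labelled hearts lie above all controls, against 22.7% of all genes and features. Permuting the heart labels of a single gene could give no p below 0.1 in an exact test, and limma's calls borrow the spread of other genes.

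**Figure D1:**
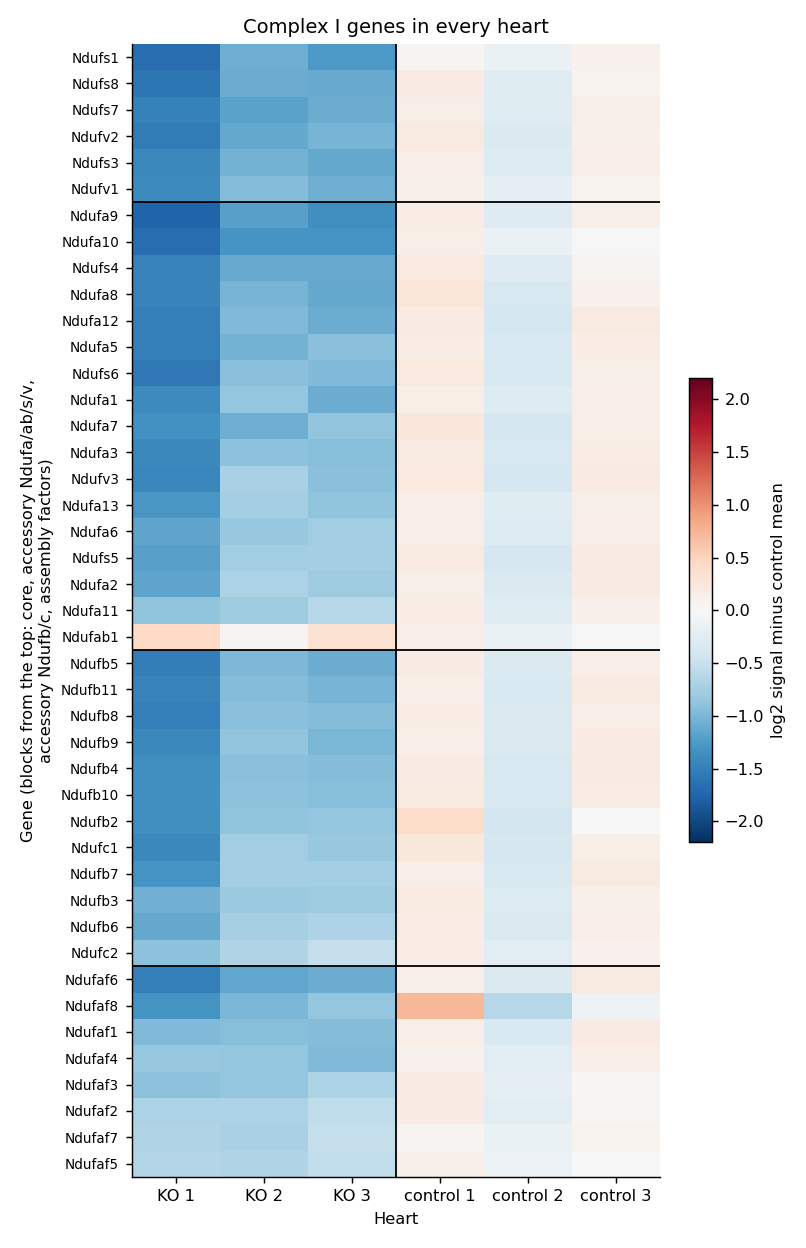
Log2 signal of 43 complex I genes (rows, in blocks by role) in each of the 6 hearts (columns), shown as the difference from the mean of the 3 control hearts, with lower values in blue. All rows but Ndufab1 are lower in the 3 KO-labelled hearts than in the 3 controls, and KO heart 1 is the lowest KO-labelled heart in most rows.

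The promoters of members are shown here because 43 of the 44 genes fell although the genes are spread over 17 chromosomes, and the one of Ndufab1 is shown beside them. RefSeq windows of 300 bases, from 250 before to 50 after the transcript start (build GRCm38.p6), were found for 39 of the 44 genes. The stretches below are the last 150 bases before the start, for the core subunit, the accessory subunit and the assembly factor with the largest fall among those with a window, for the gene with the largest further fall that held an NRF1 motif in this stretch, and for Ndufab1. Capitals mark matches to any of the 6 motifs described after them, on either strand. The coordinates are chr19:3912775-3912924, minus strand, for Ndufs8, and chr6:126849145-126849294, minus strand, for Ndufa9. They are chr11:120098784-120098933, plus strand, for Ndufaf8, chr2:36049339-36049488, minus strand, for Ndufa8, and chr7:122101849-122101998, minus strand, for Ndufab1.
Ndufs8: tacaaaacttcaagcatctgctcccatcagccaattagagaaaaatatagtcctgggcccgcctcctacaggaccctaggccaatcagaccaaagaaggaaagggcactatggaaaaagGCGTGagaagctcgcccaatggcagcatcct
Ndufa9: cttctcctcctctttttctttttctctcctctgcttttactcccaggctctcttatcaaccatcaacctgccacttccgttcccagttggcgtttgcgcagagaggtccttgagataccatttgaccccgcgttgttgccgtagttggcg
Ndufaf8: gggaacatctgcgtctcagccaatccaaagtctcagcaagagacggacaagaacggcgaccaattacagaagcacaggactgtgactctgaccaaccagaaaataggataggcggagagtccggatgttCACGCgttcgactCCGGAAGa
Ndufa8: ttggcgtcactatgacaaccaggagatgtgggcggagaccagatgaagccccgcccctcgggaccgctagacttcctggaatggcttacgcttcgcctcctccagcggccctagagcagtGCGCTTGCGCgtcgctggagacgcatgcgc
Ndufab1: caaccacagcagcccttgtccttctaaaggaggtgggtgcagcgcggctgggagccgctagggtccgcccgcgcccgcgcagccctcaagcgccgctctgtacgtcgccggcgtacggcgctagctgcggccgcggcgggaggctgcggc

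The 6 motifs were searched on both strands of the full 300-base windows. NRF1, a factor of nuclear genes for mitochondrial proteins, was searched as GCGCA and GCGC with any 1 base between them, which was in 10 of 41 member windows (24.4%) and in 4.60% of all 32851 windows. The 9 genes with it were Ndufa5, Ndufa6, Ndufa8, Ndufa11, Ndufb4, Ndufs5, Ndufs6, Ndufaf4 and Ndufaf5. The YY1 motif AAGATGGC was in 8 member windows (19.5%) and in 2.75% of all windows, and among its genes were Ndufa9, where it lies outside the printed stretch, Ndufs7 and Ndufaf8. The ETS motif CCGGAAG was in 14.6% of member windows and 8.86% of all, and the ERR half-site AAGGTCA in 7.32% and 4.72%. Of the hypoxia response cores, ACGTG was in 19.5% of member windows and 19.6% of all, and GCGTG in 53.7% and 32.4%. A short core can lie inside a longer motif, windows of 1 gene can overlap, and base composition was not matched. These matches describe letters only. The window of Ndufab1 held none of the 6, and neither did the windows of some members that fell.

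All 7 nuclear-encoded core subunits fell, with a median log2 difference of -1.25. The roles are given side by side and were not tested against each other. Ndufs1 (NM_145518), which carries iron-sulfur clusters of the NADH-oxidising part, had 6.44, 7.04 and 6.86 in the KO-labelled hearts, against 8.17, 7.96 and 8.20 in the controls (log2 difference -1.33 ± 0.18 SE, limma adjusted p = 0.00408). The KO-labelled hearts were all lower, and KO heart 1 was the lowest.

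Ndufs8 (NM_144870), another iron-sulfur protein of the core, had 4.69, 5.20 and 5.17 in the KO-labelled hearts, against 6.47, 6.02 and 6.36 in the controls (log2 difference -1.26 ± 0.19 SE, limma adjusted p = 0.00515). The smallest falls of this group were those of Ndufs3 and Ndufv1. Ndufs3 (NM_026688), a core protein of the quinone-binding part, had 7.15, 7.53 and 7.46 in the KO-labelled hearts, against 8.72, 8.28 and 8.72 in the controls (log2 difference -1.20 ± 0.18 SE). Ndufv1 (NM_133666), which binds NADH and the flavin, had 7.67, 8.12 and 8.01 in the KO-labelled hearts, against 9.19, 8.88 and 9.15 in the controls (log2 difference -1.14 ± 0.16 SE, limma adjusted p = 0.00454). Even here no heart of one group reached into the other. Ndufs7, which hands electrons from its iron-sulfur cluster to ubiquinone, fell with a log2 difference of -1.25, and Ndufv2, the partner of Ndufv1, with -1.23.

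**Figure D2:**
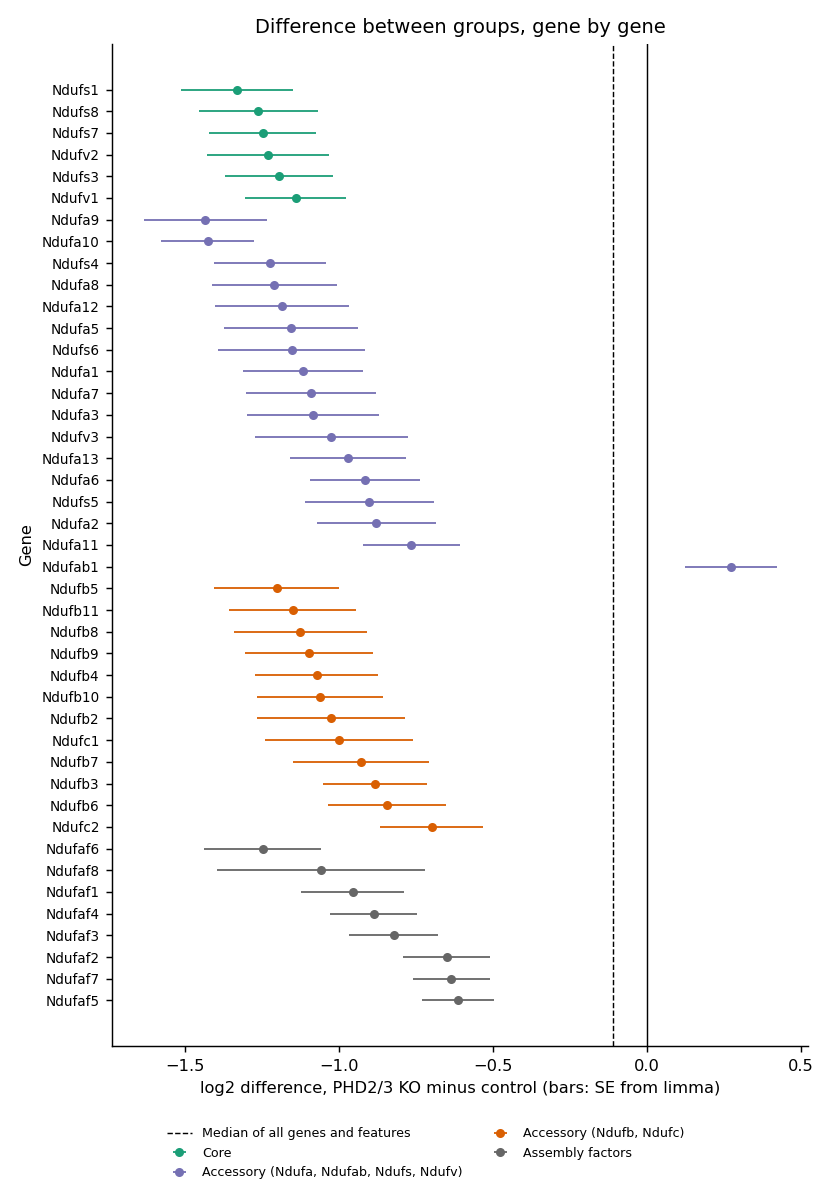
Log2 difference of 43 complex I genes, KO-labelled minus control (points, with standard errors from limma as bars), coloured by role and sorted within each role, with the median of all genes and features as a dashed line at -0.11. Ndufa9 and Ndufa10 lie furthest left at -1.43, Ndufaf5 has the smallest fall at -0.61, and Ndufab1 alone lies above 0.

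Of the 17 accessory subunits named Ndufa, Ndufab, Ndufs or Ndufv, 16 fell and 1 did not pass, with a median log2 difference of -1.09. Ndufa9 (NM_025358), which sits near the junction of the peripheral and membrane arms, had 5.80, 6.36 and 6.202 in the KO-labelled hearts, against 7.71, 7.26 and 7.69 in the controls (log2 difference -1.43 ± 0.20 SE, limma adjusted p = 0.00421). Ndufa10 (NM_024197), a subunit of the membrane arm related to nucleoside kinases, had 5.09, 5.47 and 5.44 in the KO-labelled hearts, against 6.90, 6.62 and 6.76 in the controls (log2 difference -1.43 ± 0.15 SE, limma adjusted p = 0.00241). Its groups were separated by 1.15. Ndufs4 (NM_010887), needed to attach and hold the NADH-oxidising part, and whose loss in mice is a model of Leigh syndrome, had 5.56, 5.93 and 5.93 in the KO-labelled hearts, against 7.25, 6.74 and 7.10 in the controls (log2 difference -1.22 ± 0.18 SE, limma adjusted p = 0.00481). Here too KO heart 1 and control heart 2 were the lowest of their groups.

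The smallest fall in this group was that of Ndufa11. Ndufa11 (NM_027244), a membrane-arm subunit, had 5.92, 6.01 and 6.18 in the KO-labelled hearts, against 6.96, 6.53 and 6.91 in the controls (log2 difference -0.77 ± 0.16 SE, limma adjusted p = 0.012). It did not pass without control heart 1 or without control heart 3. The other falls of the group were -1.21 for Ndufa8, -1.18 for Ndufa12, -1.16 for Ndufa5, -1.15 for Ndufs6 and -1.12 for Ndufa1 on the log2 scale. Further falls were -1.09 for Ndufa7, -1.08 for Ndufa3, -1.02 for Ndufv3, -0.97 for Ndufa13, -0.91 for Ndufa6, -0.90 for Ndufs5 and -0.88 for Ndufa2. Of these Ndufv3, Ndufs5 and Ndufa2 did not pass without control heart 1 or without control heart 3. Ndufa13 is also known as GRIM-19, and Ndufs6 binds zinc at the base of the NADH-oxidising part.

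Ndufab1 was the member that did not pass. Its protein is the mitochondrial acyl carrier protein, which serves fatty acid synthesis and iron-sulfur cluster assembly in mitochondria as well as complex I. Ndufab1 (NM_028177) had 1.91, 1.53 and 1.81 in the KO-labelled hearts, against 1.61, 1.33 and 1.48 in the controls, so the groups overlapped (log2 difference 0.27 ± 0.15 SE, limma adjusted p = 0.183). It had 1 probe, well above background on all 6 arrays. That probe was the dimmest used for a subunit, with a control mean of 1.47, against 5.32 for the next, Ndufa8. The assembly factors Ndufaf5 and Ndufaf8 had dimmer probes, with control means of -0.18 and -0.90, and fell. Whether the Ndufab1 probe follows its transcript well was not tested. The position of Ndufab1 was the 74.0th percentile of all log2 differences, counted from the lowest. It passed as higher after cyclic loess scaling (adjusted p = 0.0485) and with array weights (adjusted p = 0.0213).

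All 12 accessory subunits named Ndufb or Ndufc, which belong to the membrane arm, fell, with a median log2 difference of -1.04. Ndufb5 (NM_025316) had 5.99, 6.52 and 6.42 in the KO-labelled hearts, against 7.69, 7.20 and 7.66 in the controls (log2 difference -1.20 ± 0.20 SE, limma adjusted p = 0.00669). Ndufb11 (NM_019435), on the X chromosome with Ndufa1, had 7.49, 8.00 and 7.94 in the KO-labelled hearts, against 9.10, 8.62 and 9.15 in the controls (log2 difference -1.15 ± 0.21 SE, limma adjusted p = 0.00793). Ndufb8 (NM_026061), often used as the marker of assembled complex I on blots, had 7.87, 8.44 and 8.41 in the KO-labelled hearts, against 9.53, 9.04 and 9.52 in the controls (log2 difference -1.13 ± 0.22 SE, limma adjusted p = 0.00975). In all 3 genes KO heart 1 was the lowest of its group and control heart 2 the lowest of the controls, and the groups lay 0.60 to 0.68 apart.

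The smallest falls among them were those of Ndufb6 and Ndufc2. Ndufb6 (NM_001033305) had 5.64, 6.02 and 6.08 in the KO-labelled hearts, against 6.93, 6.44 and 6.91 in the controls (log2 difference -0.84 ± 0.19 SE, limma adjusted p = 0.0165). Ndufc2 (NM_024220) had 6.38, 6.62 and 6.76 in the KO-labelled hearts, against 7.45, 7.03 and 7.37 in the controls (log2 difference -0.70 ± 0.17 SE, limma adjusted p = 0.019). Neither passed without control heart 1 or without control heart 3, nor did Ndufb2, Ndufb7 and Ndufc1. Falls of -1.10 for Ndufb9, -1.07 for Ndufb4, -1.06 for Ndufb10, -1.03 for Ndufb2, -1.001 for Ndufc1, -0.93 for Ndufb7 and -0.88 for Ndufb3 lay between.

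**Figure D3:**
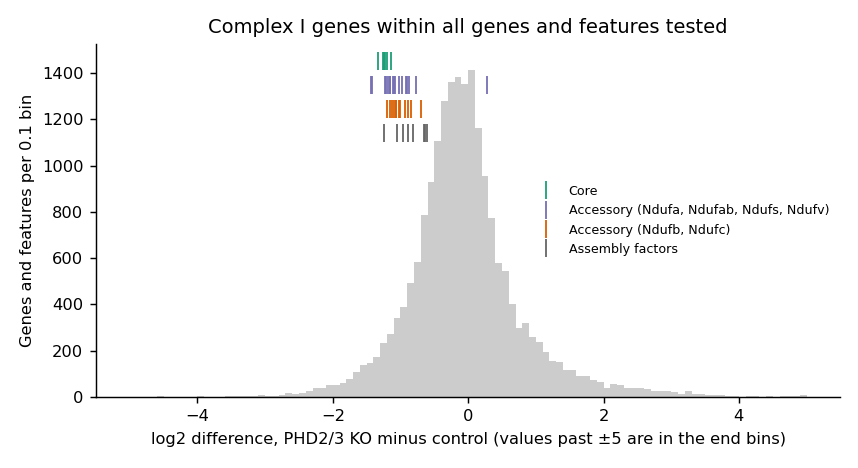
Histogram of the log2 difference, KO-labelled minus control, of all 20012 genes and features tested (grey, bins of 0.1, values past 5 in either direction in the end bins), with 43 complex I genes as ticks coloured by role. All ticks but Ndufab1 lie in the lower tail, and 29 of the 44 genes are among the lowest 10% and 43 among the lowest 20% of all differences.

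All 8 assembly factors fell, with smaller differences at the median (-0.85) and log2 differences from -1.25 to -0.61. Ndufaf6 (NM_001085493), needed early for the part of the membrane arm built around a mitochondrially encoded subunit, had 1.06, 1.42 and 1.48 in the KO-labelled hearts, against 2.70, 2.25 and 2.76 in the controls (log2 difference -1.25 ± 0.19 SE, limma adjusted p = 0.00512). Ndufaf1 (NM_027175), a factor of the intermediate assembly complex, had 2.98, 3.02 and 3.00 in the KO-labelled hearts, against 4.11, 3.62 and 4.14 in the controls (log2 difference -0.96 ± 0.17 SE, limma adjusted p = 0.00726). The 3 KO-labelled hearts were almost level in Ndufaf1, with an SD of 0.02, against 0.29 in the controls.

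Ndufaf8 (NM_001110242), a partner of Ndufaf5, had -2.23, -1.91 and -1.75 in the KO-labelled hearts, against -0.18, -1.52 and -1.01 in the controls (log2 difference -1.06 ± 0.34 SE, limma adjusted p = 0.0471). Its controls were widely spread, and the gene passed when control heart 2 was left out but not when any 1 of the other 5 hearts was, with an adjusted p of up to 0.119. Ndufaf7 (NM_028611), a methyltransferase, had 3.14, 3.104 and 3.28 in the KO-labelled hearts, against 3.88, 3.66 and 3.89 in the controls (log2 difference -0.63 ± 0.12 SE, limma adjusted p = 0.0101). Ndufaf5 (NM_027093), a hydroxylase that acts on Ndufs7, had -0.81, -0.84 and -0.72 in the KO-labelled hearts, against -0.06, -0.30 and -0.17 in the controls (log2 difference -0.61 ± 0.12 SE, limma adjusted p = 0.00975). With spike-in scaling Ndufaf5, Ndufaf7 and Ndufaf8 did not pass (adjusted p up to 0.0727). Ndufaf4 and Ndufaf3, which act together on the quinone-binding part, fell with log2 differences of -0.89 and -0.82, and Ndufaf2, a relative of Ndufa12 that is replaced by it, with -0.65. Ndufaf2 did not pass without control heart 1 or without control heart 3.

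Of 8 members with more than 1 probe, most gave like values from both. The second probe had -1.29 for Ndufa5, -1.18 for Ndufaf4, -1.03 for Ndufb11, -0.997 for Ndufb4, -1.16 for Ndufb5 and -0.80 for Ndufb6, and all of these passed when adjusted over all probes. The second Ndufaf5 probe was not well above background on any array. Ndufv3 was the exception. Its brighter probe had 8.13, 8.85 and 8.64 in the KO-labelled hearts, against 9.77, 9.17 and 9.75 in the controls. Its dimmer probe had 1.19, 1.33 and 1.60 in the KO-labelled hearts, against 1.44, 1.104 and 1.39 in the controls, and did not pass (log2 difference 0.06, limma adjusted p = 0.782). Ndufv3 is known to make a short and a long isoform. Both probes carry the accession NM_030087, and their positions in the transcript were not used. With the mean of both probes Ndufv3 did not pass (log2 difference -0.48, adjusted p = 0.0885). Some members have listed pseudogenes, and signal from near-identical copies cannot be told apart.

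Within each group the subunits moved together from heart to heart. KO heart 1 was the lowest KO-labelled heart in 35 of 36 subunits and in 5 of 8 assembly factors, against 40.4% of all genes and features. Control heart 2 was the lowest control in 35 of 36 subunits and in 8 of 8 assembly factors, against 59.2% of all genes and features. The median subunit lay 0.44 lower (difference -0.44) in KO heart 1 than in the mean of KO hearts 2 and 3, while the median assembly factor differed by -0.06. Over all genes and features this median was -0.01. For control heart 2 against the mean of control hearts 1 and 3, the median subunit differed by -0.48 and the median assembly factor by -0.35. Over all genes and features that median was -0.15. The SD within groups was 0.27 for the median subunit and became 0.06 once the median of the other members in each heart was subtracted. For the median assembly factor these SDs were 0.16 and 0.18, and for the median of all genes and features 0.20 and 0.28. With 36 subunits and 8 assembly factors, the subtracted median mostly follows the subunits, which favours them in this measure. No test was made of the contrast between subunits and assembly factors. The closest followers by this measure were Ndufb4, Ndufb10 and Ndufs3, with 0.03, 0.03 and 0.04. Of the assembly factors Ndufaf6 followed most closely, with 0.05, and the others had 0.15 to 0.35.

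**Figure D4:**
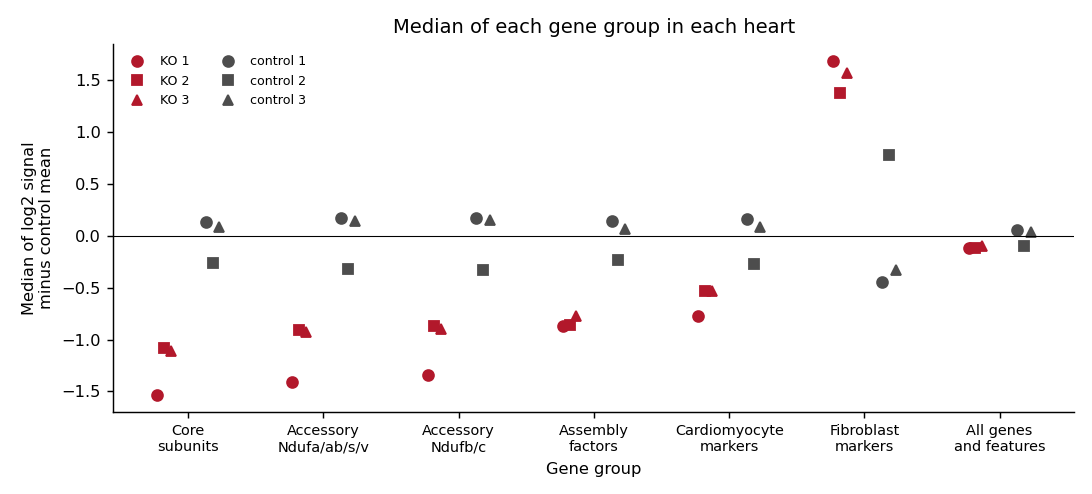
Median, over the genes of each group, of the log2 signal minus the mean of the controls, for each KO-labelled heart (red) and each control heart (grey), with symbols for replicates 1 to 3. The subunit groups show KO heart 1 apart from KO hearts 2 and 3, the assembly factors show the KO-labelled hearts level, and control heart 2 lies below the other controls in the complex I groups and in cardiomyocyte markers and above them in fibroblast markers.

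Array brightness ran alongside this pattern. The signal at the 75th percentile was 235, 187 and 198 in the KO-labelled arrays and 147, 201 and 148 in the control arrays, so KO heart 1 and control heart 2 had the brightest array of their group. Control arrays 1 and 3 were also dimmer than every KO-labelled array, while control array 2 was brighter than KO-labelled arrays 2 and 3. The part of array brightness in the order of hearts and in the difference between the groups was not tested. The gap of KO heart 1 in the median subunit, -0.44 here, was -0.44 with quantile, -0.45 with cyclic loess, -0.34 with normexp and -0.27 with spike-in scaling. That of control heart 2, -0.48 here, was -0.16 with quantile, -0.19 with cyclic loess, -0.34 with normexp and -0.07 with spike-in scaling. In the median assembly factor the gap of KO heart 1 was -0.08 with quantile and with cyclic loess. It was -0.01 with normexp and 0.10 with spike-in scaling. For control heart 2 the assembly factor gap was -0.21 with quantile, -0.18 with cyclic loess, -0.23 with normexp and 0.05 with spike-in scaling. Both assembly factor gaps changed sign with spike-in scaling. The medians over the 44 genes, relative to the mean of the controls, were -1.40, -0.91 and -0.95 in the KO-labelled hearts and 0.17, -0.31 and 0.14 in the controls.

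All 6 arrays lay on 1 slide, and each position there has a pair of indices in the file headers. The first index was 2 for all KO-labelled arrays and 1 for all control arrays, so it and the group cannot be told apart. The second index was shared by hearts of the same number. Within each of the 3 shared indices 43 of 44 genes were lower in the KO-labelled heart, with medians of -1.57, -0.56 and -1.10, where 58.8%, 52.3% and 58.8% of all genes and features were lower. These values within positions were added after seeing the data. With this index as a block 34 of the 44 genes fell (limma, Benjamini-Hochberg), against 13.7% of all genes and features. The 9 that no longer passed were Ndufa2, Ndufaf8, Ndufb2, Ndufb6, Ndufb7, Ndufc1, Ndufc2, Ndufs5 and Ndufv3, with an adjusted p of up to 0.0958.

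The neighbours of complex I in the pathway fell as well. Of 14 complex I factors whose symbols do not begin with Nduf, 13 were tested, 11 fell and 2 did not pass, with a median log2 difference of -0.88. The largest falls were those of Tmem70 (-1.21), which helps to build the membrane arm and ATP synthase, and Ecsit (-1.18), which works with Ndufaf1. Lyrm2 and Dmac1 did not pass, at -0.40 (adjusted p = 0.0597) and -0.30 (adjusted p = 0.165). All 8 genes of complex II, the succinate dehydrogenase subunits and their assembly factors, fell, with a median of -0.88, led by Sdhc (-1.34) and Sdhb (-1.24). All 9 nuclear subunits of complex III fell, with a median of -1.23, led by the iron-sulfur subunit gene Uqcrfs1 (-1.44) and the gene Uqcrc1 (-1.40). Whether the lists differ was not tested. The lowest heart of each group was shared by these lists, but the order of KO hearts 2 and 3 was not. Relative to the mean of the controls, the medians of complex II were -1.07, -0.89 and -0.79 in the KO-labelled hearts and 0.13, -0.22 and 0.05 in the controls. Those of complex III were -1.50, -0.89 and -1.14 in the KO-labelled hearts and 0.16, -0.30 and 0.15 in the controls. KO heart 1 and control heart 2 were the lowest of their groups in both lists, and in the median of the cardiomyocyte markers (-0.78 and -0.27).

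Cardiomyocyte markers were present on every array and 6 of 8 fell, with a median of -0.61, the largest fall being Tnni3 (-1.57). Their summed signal, in multiples of each array's 75th percentile, was 5194 to 6211 in KO-labelled hearts and 7372 to 10052 in controls. In bulk hearts, fewer cardiomyocytes and less RNA per cardiomyocyte cannot be told apart. Of 8 fibroblast markers 6 rose (summed signal 1042 to 1174 in KO-labelled hearts and 410 to 757 in controls, highest in control heart 2), and so did 3 of 5 tested macrophage and leukocyte markers (96.4 to 140 in KO-labelled hearts and 49.9 to 73.1 in controls), while Cd163, a marker of resident macrophages, fell. Of 6 endothelial markers 0 passed (69.0 to 83.7 in KO-labelled hearts and 71.5 to 98.1 in controls; Tek and Pecam1, 2 of the 6, were lower at an unadjusted p under 0.05). Of 5 smooth muscle and pericyte markers 2 fell and 2 rose (101 to 136 in KO-labelled hearts and 107 to 115 in controls). Of 2 tested erythroid and 3 mesothelial markers 0 passed, and 0 did at an unadjusted p under 0.05. The marker Cd68 had no probe matched. The part of cell composition in the complex I falls was not tested.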

How the data were processed

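Hearts of 6 mice were measured on Agilent 1-colour arrays. The deposited scanner files hold intensity values on a linear scale, background-subtracted by Agilent Feature Extraction 11.0.1.1 per the file headers, without scaling between arrays, and 0 or 1 flags, another kind of value that the software set per the file headers. The authors' deposited value table holds log2 values with row medians near 0, and its scaling and centring are not given in the sources used here. Its column medians were -0.04, -0.05 and -0.02 (KO-labelled) and 0.09, -0.02 and 0.07 (control). It matched the scanner's differences between arrays within 0.001 (up to a constant per pair of arrays) for 95.1% of values, with a correlation of 0.788 over all of them, and served as an alternative. For the RNA the labels name a Qiagen column kit and also a blood kit with globin depletion, which was not resolved.

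Outlier spots were left out, spots of a probe averaged in log2, and the 75th percentile of each array subtracted (R 4.3.3, limma 3.58.1). Probes were named by accession (26551 of 55608), kept where 1 group or both had the well-above-background flag on all its arrays, and each gene took its probe with the highest mean. Normexp used the median signal of a spot, the mean not being in the columns used. The members and lists were chosen with earlier results of these data known. Values per heart are given for the members with the 3 lowest and 2 highest log2 differences of each role and for those that did not pass, and 1 member enters the counts and medians but is not reported here; other lists give up to 2 falls and 2 rises. The number of arrays, 3 per group, limits precision. The labels call the replicates biological. The fit was tested on simulated data with genes drawn independently, which does not cover genes that move together. Alternatives were quantile, median, cyclic loess and E1A spike-in scaling, normexp, the deposited table, 2 other filters, the mean of probes, other variance fits, array weights, the replicate block and leaving out each heart.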

Additional observations from a re-analysis of the deposited data

How the results depend on the processing

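Over 18 alternatives the log2 difference of all 44 complex I genes kept its direction, and 30 genes kept their call in each. The replicate block and the variance fit with trend could change calls but not log2 differences. The 2 other filters left the median member at -1.08. Between 32 and 43 members fell, and the median member lay between -1.26 and -0.84. Cyclic loess and array weights each called 1 member higher (Ndufab1). Leaving out 1 heart gave 32 to 43 falls, 0 rises, and medians of -1.26 (without control heart 2) to -0.94. Without control heart 1 or control heart 3, 11 falls did not pass: those of Ndufa2, Ndufa11, Ndufaf2, Ndufaf8, Ndufb2, Ndufb6, Ndufb7, Ndufc1, Ndufc2, Ndufs5 and Ndufv3 (adjusted p up to 0.103). With no filter on dim probes 33 fell. Of all genes and features 7815 passed, and 4345 with no filter, 13711 with array weights and 4859 with the replicate block. Leaving out 1 heart gave 3987 to 8671, with 3987 without control heart 1, 4121 without control heart 3 and 5141 without KO-labelled heart 3. The share of calls that were higher was 41.1%, against 59.5% when scaled by spike-ins and 55.3% by cyclic loess. The median of all genes and features was 0.13 when scaled by spike-ins, in place of -0.11. Relative to it the median member was -0.97 (fixed by construction for scalings that add a constant per array), -0.80 with quantile and -0.87 with cyclic loess scaling. With the replicate block 34 members fell. Hearts of the same number share an array position index, and their deviations had correlations across genes of -0.15, -0.12 and -0.08. Those of hearts of unlike number ran from -0.17 to 0.26. Deviations were centred within each group, so these correlations depend on each other. An effect of array position was not tested by them. Leaving out a heart also leaves fewer hearts, and having no filter means more genes tested. The cause of these changes was not tested.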
